A study of Homo sapiens with 12 samples.

Results

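The 10 genes described here encode RNA exonucleases of the DEDD superfamily and include REXO4, the gene whose protein was tagged in one arm of the study. They are REXO1, REXO2, REXO4, REXO5, ISG20, ISG20L2, AEN, EXOSC10, ERI1 and ERI3, chosen by name out of 19866 protein-coding genes in the annotation, and each gene was read together with 5 kb on either side. The peaks came from Flag ChIP-seq in U2OS, a human osteosarcoma line, with 12 libraries in 8 groups and 6 libraries per line. Both lines carried a tet-on transgene. Line 1 expressed REXO4-D386A, a nuclease-dead form of REXO4, and was grown with doxycycline (1 µg/ml for about 60 h; 2 ChIP libraries and 1 input) or without it (2 ChIP libraries and 1 input). Line 2 expressed RNaseH1-D210N, a form of RNase H1 that cannot cleave RNA in RNA:DNA hybrids, and had the same 4 groups of doxycycline and input with the same numbers of libraries. The labels do not say whether a line was a single clone, nor how the level of induced protein compared with that of the native gene. The question of the study was whether the 2 proteins bind R-loops.

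The values were 2 peak lists in hg38, 1 per line, with 1460 peaks for REXO4-D386A and 54623 for RNaseH1-D210N. The labels and notes do not say which libraries entered a list, which control was used or whether replicates were pooled, so no value below has a replicate error and no test between conditions was made. The depth per library is likewise unknown. The fold enrichment is the authors' value, the summit signal over the expected one with 1 added to each. The range in brackets after a fold is its 95% interval, the exact Poisson bounds on the number of fragments at the summit, which covers counting error only. The expected signal was held fixed, so its own error is left out and intervals that allowed for it would be wider. Folds were compared within a list and never between the lists. The lists hold rows with a q as high as 0.179 (REXO4-D386A) and 0.198 (RNaseH1-D210N), and all rows were counted unless a cutoff is given.

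As background, DEDD exonucleases are named for 4 acidic residues that hold the metal ions of the active site, and they digest RNA or DNA from the 3′ end. Family members trim ribosomal RNA precursors, mature small RNAs, degrade histone mRNA and clear very short RNAs. An R-loop forms when RNA pairs with the template strand of DNA and displaces the other strand, and it is often found at CpG-rich gene starts.

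No row of the REXO4-D386A list lay in any of the 10 genes or within 5 kb of them, and 23 rows of the RNaseH1-D210N list did. All 10 genes had at least 1 RNaseH1 peak, and 4 of them (REXO2, REXO5, ISG20L2 and EXOSC10) had exactly 1. The other genes had 2 (REXO4, ISG20, ERI1), 3 (AEN), 4 (ERI3) or 6 (REXO1). Among all protein-coding genes, 82.1% had an RNaseH1 peak in the same kind of window, and 86% of the 13394 genes within the range of lengths of these 10 genes (6.88 to 134 kb) did. A REXO4 peak was found in the window of 6.16% of protein-coding genes, and of 5.77% of those of like length. The count of 10 in 10 is therefore close to what most genes of this size showed, and with so few genes the count of 0 is not told apart from the background share.

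The sequences around the gene starts show where these peaks sat. They are RefSeq windows of 300 bases (GRCh38.p14), from 250 bases before to 50 after an annotated start, and 9 of the 10 genes matched (12 windows). ERI1 had none. The RNaseH1 summit falls inside an ISG20L2 window, which is not printed. It also falls inside the first 3 printed windows, where capitals mark the 21 bases centred on it. They are REXO4 (chr9:133417961-133418260, minus strand), REXO5 (chr16:20806277-20806576, plus strand) and ISG20 (chr15:88638766-88639065, plus strand).
REXO4: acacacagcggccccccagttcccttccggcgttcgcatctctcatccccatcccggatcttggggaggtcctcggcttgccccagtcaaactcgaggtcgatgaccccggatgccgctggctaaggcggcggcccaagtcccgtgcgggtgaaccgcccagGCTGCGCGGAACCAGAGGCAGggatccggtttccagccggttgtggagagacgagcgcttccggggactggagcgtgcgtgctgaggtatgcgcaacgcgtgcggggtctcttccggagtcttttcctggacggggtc
REXO5: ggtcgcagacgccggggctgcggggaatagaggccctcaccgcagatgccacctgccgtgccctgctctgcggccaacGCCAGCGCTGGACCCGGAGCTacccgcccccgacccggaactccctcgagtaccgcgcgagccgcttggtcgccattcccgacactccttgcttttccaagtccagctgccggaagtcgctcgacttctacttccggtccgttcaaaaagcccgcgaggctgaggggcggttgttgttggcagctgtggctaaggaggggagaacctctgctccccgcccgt
ISG20: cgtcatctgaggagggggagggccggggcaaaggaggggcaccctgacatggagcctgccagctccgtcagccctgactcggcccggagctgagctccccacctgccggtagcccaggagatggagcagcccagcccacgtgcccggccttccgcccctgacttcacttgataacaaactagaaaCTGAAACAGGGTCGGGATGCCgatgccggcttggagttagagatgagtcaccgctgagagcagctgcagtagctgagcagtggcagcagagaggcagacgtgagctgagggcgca
In both ERI3 windows, which are not printed, the peak begins inside the window and its summit lies beyond it, in the gene. The same holds for the next 3 printed windows, where capitals mark the bases inside the peak. They are REXO2 (chr11:114439217-114439516, plus strand), AEN (chr15:88621090-88621389, plus strand) and EXOSC10 (chr1:11099820-11100119, minus strand).
REXO2: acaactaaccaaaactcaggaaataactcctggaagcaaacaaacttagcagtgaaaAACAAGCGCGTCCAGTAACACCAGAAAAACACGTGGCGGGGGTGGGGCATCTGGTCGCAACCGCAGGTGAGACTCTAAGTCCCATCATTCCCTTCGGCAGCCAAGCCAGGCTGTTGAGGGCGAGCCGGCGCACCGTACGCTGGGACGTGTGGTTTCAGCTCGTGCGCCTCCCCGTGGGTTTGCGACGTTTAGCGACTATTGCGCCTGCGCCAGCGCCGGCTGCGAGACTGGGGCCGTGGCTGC
AEN: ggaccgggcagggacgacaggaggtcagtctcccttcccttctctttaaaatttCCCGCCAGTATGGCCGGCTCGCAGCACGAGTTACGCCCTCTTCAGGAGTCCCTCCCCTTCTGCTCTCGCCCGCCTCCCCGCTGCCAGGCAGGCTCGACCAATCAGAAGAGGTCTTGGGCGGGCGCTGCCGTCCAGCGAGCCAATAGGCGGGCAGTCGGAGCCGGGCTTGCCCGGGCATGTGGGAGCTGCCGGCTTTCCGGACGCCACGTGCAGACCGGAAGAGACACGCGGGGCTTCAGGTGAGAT
EXOSC10: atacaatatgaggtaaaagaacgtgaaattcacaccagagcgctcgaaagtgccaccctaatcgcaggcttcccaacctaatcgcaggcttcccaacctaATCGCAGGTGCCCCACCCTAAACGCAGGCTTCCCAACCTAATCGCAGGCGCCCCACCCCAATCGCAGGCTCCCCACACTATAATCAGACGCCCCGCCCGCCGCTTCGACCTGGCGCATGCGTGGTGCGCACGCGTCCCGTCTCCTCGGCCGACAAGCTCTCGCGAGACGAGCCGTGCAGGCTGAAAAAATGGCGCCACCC
The peaks covered 243 of the 300 bases at REXO2, 246 at AEN, 200 at EXOSC10, and 253 and 275 in the ERI3 windows. At REXO1, REXO4, REXO5, ISG20 and ISG20L2 the whole window was inside the peak.

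An RNaseH1 peak overlapped a start window, by 1 bp or more, in all 9 genes that had a window, against 64% of the 15843 protein-coding genes with one. Such a peak is called a start peak below. A REXO4-D386A peak overlapped none of the windows of these 9 genes, against 2.75% of the same protein-coding genes. ERI1 had a peak across its lower boundary, with the summit 150 bp inside the gene, and that peak is counted below as its start peak, although the tables used give no strand for ERI1. The summits of the 10 start peaks were 55 to 203 bp from the nearest start, with a median of 138.5 bp, and 9 of them were within 200 bp. In 7 genes the summit was on the gene side of the start and in 3 genes (REXO4, REXO5 and ISG20) it was on the upstream side. Over all protein-coding genes with a start peak the median distance was 155 bp (interquartile range 74 to 253). By gene boundary, 9 of the 10 genes had an RNaseH1 peak within 1 kb of either end, all but ISG20, against 67.1% of protein-coding genes, and 0 had a REXO4 peak there, against 3.82%.

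**Figure D1:**
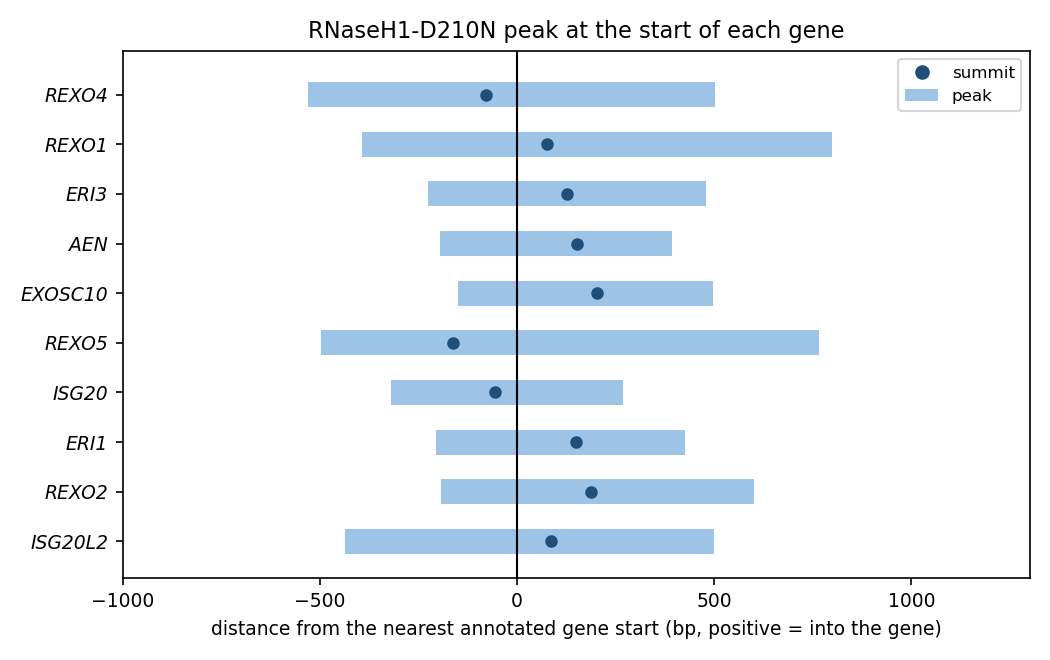
Position of the RNaseH1-D210N peak at the start of each of the 10 genes, ordered from highest fold (top) to lowest. Bars span the peak and points mark the summit, in bp from the nearest annotated start (for ERI1, from its lower boundary). All 10 bars cross the start, and the summits lie within 203 bp of it.

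REXO4 had the strongest start peak of the family. Its product is the human counterpart of yeast Rex4, which takes part in pre-rRNA processing in Saccharomyces cerevisiae. The gene lies at 133406058 to 133418172 on chromosome 9, minus strand, and its window held 2 RNaseH1 peaks. The peak at the start ran from 133417509 to 133418539 (1031 bp) with a fold of 5.52 (95% interval 4.67 to 6.47), from 149 fragments against an expected 26.2, and a −log10 q of 57.2. Its fold was above that of 97.9% of the start peaks of protein-coding genes and its percentile in the whole list was 98.3. The summit lay between the annotated starts, 78 bp upstream of the inner start and 84 bp inside the outer start. The same stretch lies in the gene body of ADAMTS13, a gene on the opposite strand whose annotation shares 3836 bp with REXO4. ADAMTS13 begins at 133414337, and the peak overlapped a start window of REXO4 only. Since both genes run under it, the peak cannot be given to REXO4 alone. ADAMTS13 encodes the protease that cleaves von Willebrand factor.

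The second REXO4 peak was narrow and weak. It ran from 133406690 to 133406958 (269 bp), inside the gene, with its summit 823 bp from the end of REXO4 that is farthest from the starts. Its fold was 2.47 (1.63 to 3.60) from 25 fragments against an expected 9.52, with a −log10 q of 2.77, and the fold stood at percentile 16.5 of the list. The neighbour STKLD1 overlaps that end of REXO4 by 39 bp but not the peak. Between the peaks the list held no further row. The tables used give no exon positions, so whether either peak falls on an exon was not tested. The nearest REXO4-D386A peak was 191 kb away, in FAM163B, with a fold of 2.58.

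**Figure D2:**
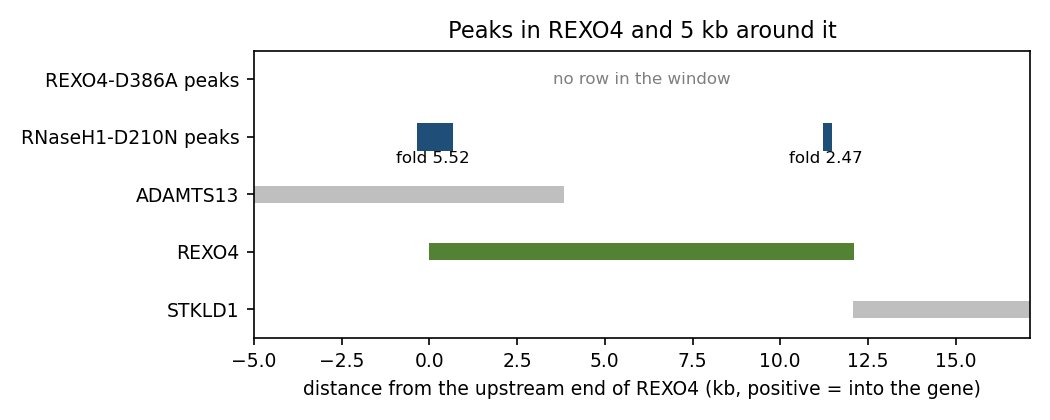
Peaks and genes in REXO4 and 5 kb around it, in kb from the upstream end of REXO4. RNaseH1-D210N has a peak of 5.52-fold at the REXO4 start, which lies in the gene body of ADAMTS13 and not at its start. It has a peak of 2.47-fold near the far end, and REXO4-D386A has no row.

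REXO1 had the deepest start peak and the most peaks. It encodes a relative of yeast Rex1 that was found as a binding partner of elongin A, a transcription elongation factor. Its start peak on chromosome 19 (1847685 to 1848875, 1191 bp) had a fold of 4.30 (3.81 to 4.83), 282 fragments against an expected 64.9, and the highest −log10 q of the family, 83.5. Only 1 other REXO1 peak was inside the gene, at 2.56-fold (1.74 to 3.64), 10609 bp from the start. The other 4 lay outside the gene. At 1811520 to 1813116, beyond its downstream end, lay 3 peaks of 1.95-fold (1.39 to 2.67), 2.65-fold (1.98 to 3.49) and 3.28-fold (2.49 to 4.24). The first and second were inside ATP8B3, near its upstream end, and overlapped no start window. The last overlapped the ATP8B3 start window but lay outside the annotated gene. A further peak of 4.14-fold (3.04 to 5.51) was 4982 bp upstream of the REXO1 start, inside KLF16. For REXO1, then, 4 of 6 rows in the window were at neighbouring genes.

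REXO2 and REXO5 each had a start peak and nothing else. REXO2 is the oligoribonuclease that removes very short RNAs, mainly in mitochondria. Its peak on chromosome 11 (114439274 to 114440068) had a fold of 2.61 (2.05 to 3.27) and 73 fragments against an expected 27.4. REXO5 has a fly counterpart that trims small nucleolar and ribosomal RNAs in Drosophila melanogaster. The REXO5 peak on chromosome 16 (20806029 to 20807293) was the widest of the 10 start peaks at 1265 bp, with a fold of 2.91 (2.30 to 3.62) and 78 fragments against an expected 26.2. ERI2, another DEDD exonuclease gene, shares 48 bp with REXO5 on the side of the REXO5 start, and the same peak was its only RNaseH1 peak. The peak thus counts for both genes.

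ISG20, ISG20L2 and AEN form a closely related subgroup. ISG20 is an interferon-induced exonuclease with antiviral activity, ISG20L2 is a nucleolar enzyme that trims the 3′ end of 5.8S rRNA precursors, and AEN is a nuclease induced by p53 during apoptosis. ISG20 and AEN are neighbours on chromosome 15, 3351 bp apart, and no peak was counted for both. The ISG20 start peak (88638697 to 88639285) had a fold of 2.70 (2.06 to 3.48) with 58 fragments, the fewest among the start peaks, against an expected 20.8. It lay 3329 bp inside the annotated gene boundary, since the start window of ISG20 is inside the gene span. A further ISG20 peak, 1531 bp past the end, had 2.17-fold (1.34 to 3.37) and a −log10 q of 1.34.

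ISG20L2 had the lowest fold of the start peaks. The value was 2.38 (1.91 to 2.94), from 85 fragments against an expected 35.1, on chromosome 1 from 156728267 to 156729202. Its peak also covered the start window of METTL25B, a methyltransferase-like gene on the opposite strand that shares 298 bp with it. AEN had 3 peaks, all inside its annotated span. The start peak (88621144 to 88621732) had 3.19-fold (2.69 to 3.77) with 139 fragments against an expected 42.9. A peak of similar depth, 2.85-fold (2.45 to 3.30) with 180 fragments against 62.5, lay 15521 bp upstream of that start, close to the lower boundary of AEN. Between them a peak of 4.51-fold (3.03 to 6.49) rested on 27 fragments against an expected 5.21. By fold the last was highest of the 3 and by −log10 q it was lowest, at 8.81 against 29.7 and 27.4. The peak near the lower boundary lies beside LINC01586 without overlapping it. LINC01586 is a lncRNA gene on the opposite strand that shares 428 bp with AEN at that boundary.

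EXOSC10, which encodes a catalytic subunit of the nuclear RNA exosome and is the counterpart of yeast Rrp6, had a single peak. It ran from 11099372 to 11100019 on chromosome 1 with a fold of 3.14 (2.66 to 3.69) and 150 fragments against an expected 47.0. The peak also covered the start window of EXOSC10-AS1, a lncRNA gene on the opposite strand that shares 195 bp with EXOSC10. Of the 10 genes, EXOSC10 was the closest to a REXO4-D386A peak. That peak lay 6.41 kb beyond its downstream end, in SRM, the gene of spermidine synthase, at 2.00-fold.

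ERI1 and ERI3 belong to the ERI subgroup. ERI1 degrades histone mRNA, trims 5.8S rRNA and limits small interfering RNAs, and less is known of ERI3. The ERI1 start peak on chromosome 8 (9002692 to 9003322) had 2.66-fold (2.13 to 3.27) with 87 fragments against an expected 32.1. It also overlapped LOC105379227, a lncRNA gene 155 bp from ERI1. A peak 2773 bp inside ERI1 (9005435 to 9005854) had 5.21-fold (3.54 to 7.40), the second highest fold of the 23, from 29 fragments against an expected 4.76. The intervals of these peaks do not overlap, but they leave out error in the expected signal, which was only 4.76 at the inner peak. Whether the folds differ beyond that error was not tested. The higher fold rested on the smaller number of fragments. The ERI3 start peak on chromosome 1 (44354778 to 44355482) had 3.48-fold (3.01 to 4.01) with 189 fragments against an expected 53.6. Its other 3 peaks lay 116979 to 131815 bp from the nearest start, all in the stretch that ERI3 shares with the intronic transcript gene ERI3-IT1. They had folds of 2.82 (1.59 to 4.67), 2.26 (1.28 to 3.74) and 4.24 (2.92 to 5.96). The first and second rested on 13 fragments each, with a −log10 q of only 1.97 and 1.04.

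**Figure D3:**
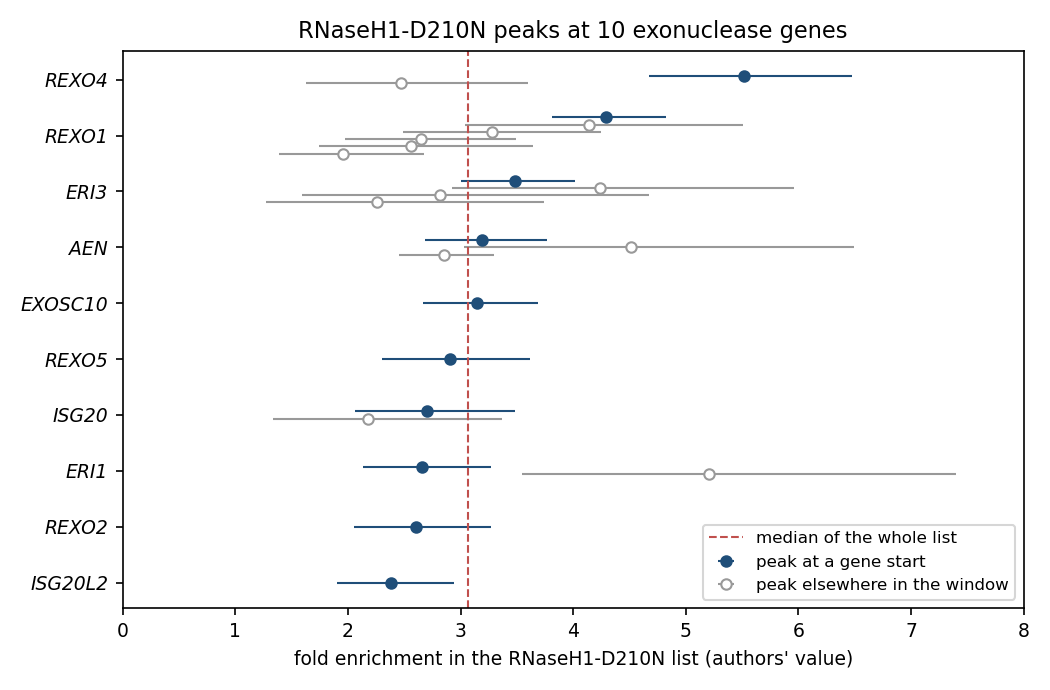
Fold enrichment of all 23 RNaseH1-D210N peaks at the 10 genes, with 95% counting intervals (expected signal held fixed). Filled points are the peaks at gene starts and open points the others, genes run from the highest start fold (REXO4, 5.52) to the lowest (ISG20L2, 2.38), and the dashed line is the median of the whole list, 3.07.

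Ordered by fold, the start peaks ran REXO4, REXO1, ERI3, AEN, EXOSC10, REXO5, ISG20, ERI1, REXO2 and ISG20L2. Between neighbours in this order, fragments over expected fragments were 1.31 times higher at REXO4 than at REXO1 (exact 95% interval of the ratio 1.07 to 1.60). They were 1.23 times higher at REXO1 than at ERI3 (1.02 to 1.49). These intervals cover the counting error of the fragments only and hold the expected signal fixed. The pairs were formed after ordering by the same values, so ratios above 1 follow from the ordering. No allowance was made for that or for the number of pairs, 9. Whether they would still exclude 1 with error in the expected signal added was not tested. In the other 7 pairs the interval of the ratio held 1, which does not show that those peaks were alike. With no replicates, none of these differences can be set against the spread between libraries. Among the start peaks, the REXO4 interval began at 4.67 and overlapped only that of REXO1. The interval of ERI3, next in the order, ended at 4.01. The group's values lay near those of gene starts at large. Their median fold was 3.03 against 3.12 over 10141 protein-coding genes with a start peak, and 5 of 10 were above that median. Their median width was 750 bp against 849 bp, and their median −log10 q was 20.3 against 16.7.

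**Figure D4:**
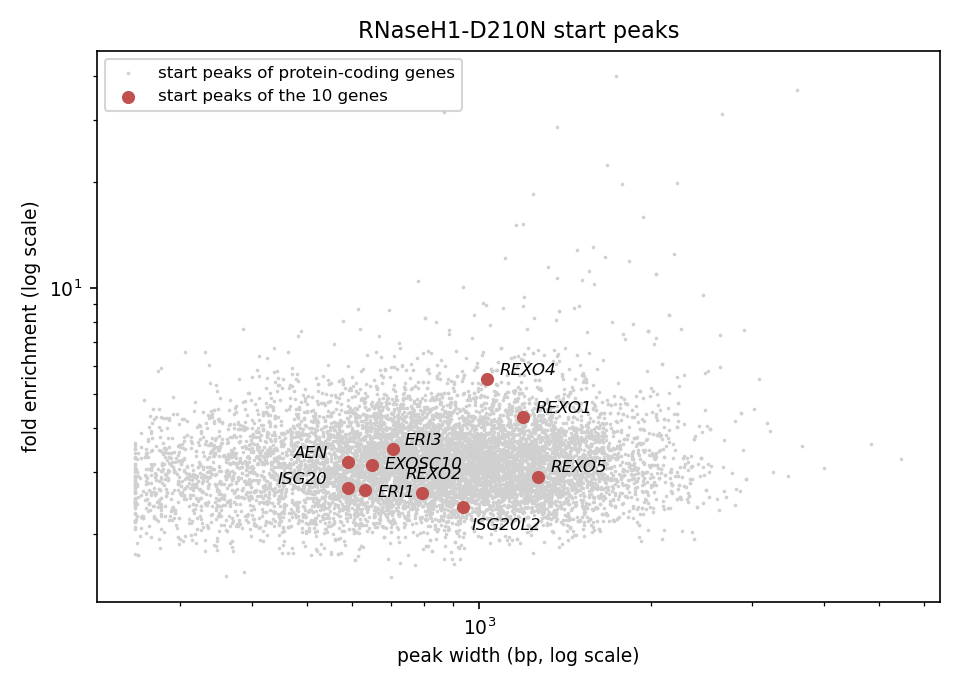
Width in bp and fold enrichment, both on log scales, of the RNaseH1-D210N start peaks of the 10 genes (red) and of all protein-coding genes with a start peak (grey). REXO4 (5.52) and REXO1 (4.30) lie in the upper part of the grey cloud by fold, and the other 8 lie in its middle or lower part.

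By median, the 13 peaks away from the starts were narrower and shallower than the 10 start peaks, with some exceptions such as the AEN peak of 180 fragments and a REXO1 peak of 762 bp. Their median width was 391 bp against 750 bp at the starts, and their median expected signal was 9.52 fragments against 33.6. Their folds ran from 1.95 to 5.21 with a median of 2.82. Of the 13, 8 were inside their gene and 5 outside. All 10 start peaks had a −log10 q of at least 5, and 7 of these 13 did. Over the whole RNaseH1 list, 45% of peaks reached that value. Among the start peaks of protein-coding genes the lower quartile of −log10 q was 10.4, so most of those reached it too. The median number of RNaseH1 peaks per gene window was 2 in the 10 genes, 2 over all protein-coding genes and 2 over those of like length.

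No RNaseH1 peak at the 10 genes overlapped a REXO4-D386A peak. Since their windows held no REXO4 row, this is not a separate result. Of all protein-coding genes with an RNaseH1 start peak, 4.54% had a REXO4 peak over it, and within the range of folds seen here 4.48% did, so that a count of 0 in 10 is near that background. The nearest REXO4 peak was under 100 kb away for EXOSC10 and for REXO1 (14.7 kb, in KLF16, 2.02-fold), and 1345 to 8266 kb away for REXO2, REXO5, ISG20, AEN and ERI1. A list holds only what passed the caller, so a missing row does not show that REXO4-D386A was absent. The weakest row of the REXO4 list had a −log10 p of 3.74, and the fewest fragments behind any of its rows were 10.

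By median, the start windows of the family had a higher CpG ratio than those of all protein-coding genes, but within their interquartile range. The observed over expected CpG ratio had a median of 0.899 over the 12 windows (0.492 at ISG20 to 1.10 at EXOSC10). Over 22199 windows of protein-coding genes it was 0.737 (interquartile range 0.352 to 0.901). ISG20 and the outer REXO4 window (0.660) lay below that median. All 12 windows overlapped an RNaseH1 peak, whereas the 22199 were not limited to windows with a peak. The G+C content had a median of 65.2% (59.3% at REXO2 to 77.3% at REXO1) against 62.3%. The skew of G over C, (G − C)/(G + C) on the gene's strand, had a median of 0.0212 against 0.0202, with the lowest value at EXOSC10 (-0.260), whose window printed above is rich in C. The windows of 1 gene overlap for REXO4 and ERI3 and are not independent.

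Short motifs were searched on both strands, and none of them contains another. GGGCGG, the core of the GC box, was present in 11 of 12 windows, all but that of REXO2, against 56.3% of all windows. CCAAT was present in 4 of 12 (AEN, EXOSC10 and both ERI3 windows) against 34.7%, and AEN had 2 copies. CACGTG, the E-box core, was present at REXO2, ISG20 and AEN, 3 of 12, against 8.34% of all windows. TATAAA was in 0 of 12, against 9.47%. These matches describe the letters only.

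**Figure D5:**
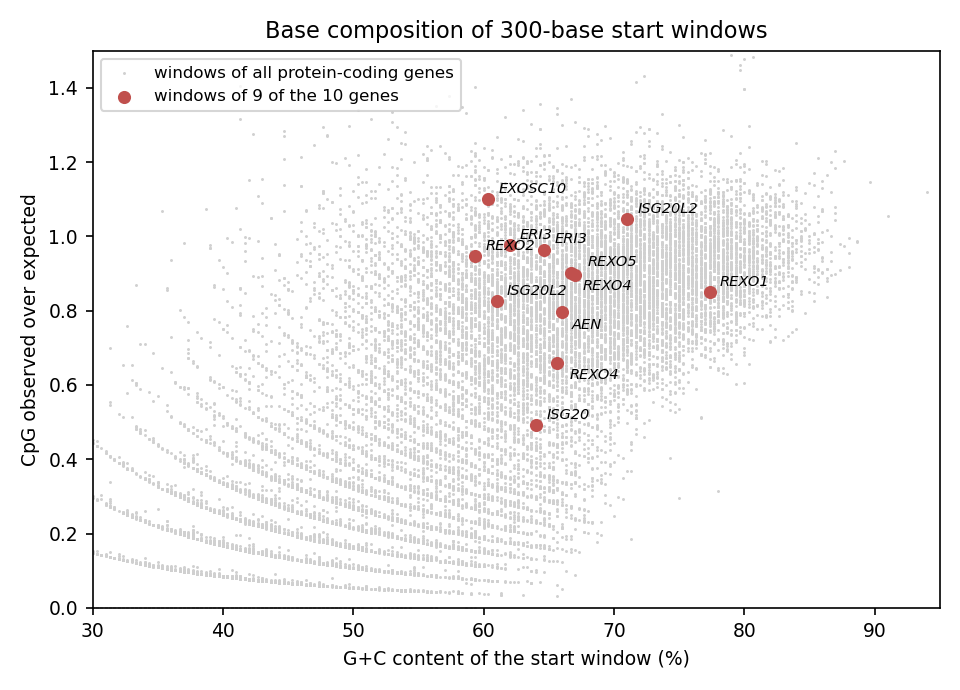
G+C content (%) and observed over expected CpG of the 12 start windows of 9 of the 10 genes (red) and of all protein-coding windows (grey). The 12 windows run from 59.3% to 77.3% G+C, ISG20 has the lowest CpG ratio (0.492), and 65 grey windows below 30% G+C or above a ratio of 1.5 are outside the axes.

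Genes of related nucleases were read in the same way. Of 13 other DEDD exonuclease genes, 12 had an RNaseH1 peak in the gene and 5 kb around it, and TREX2, a DNA exonuclease gene on chromosome X, had none. The highest folds in their windows were at EXD3 (4.66, with 14 peaks), CNOT8, a deadenylase gene (3.65), and PAN2, also a deadenylase gene (3.64). The EXD3 peak of 4.66-fold also covered the start window of its neighbour NOXA1. The PAN2 value came from a peak over the start of its neighbour CNPY2, and the peak at the PAN2 start had 3.19-fold. All 14 genes of RNA exosome subunits and cofactors had a peak, led by the ring subunit gene EXOSC8 (6.19), the exosome cofactor gene MPHOSPH6 (4.28) and the cofactor gene C1D (3.98). All 4 RNase H genes had one, and the highest folds in their windows were at RNASEH1 (4.66, 2.97 to 7.01), RNASEH2A (3.32) and RNASEH2B (3.20). The RNASEH2A value came from a peak overlapping the start windows of the neighbours PRDX2 and THSD8, and the peak at its own start had 2.92-fold. All 3 genes of 5′ exoribonucleases had one too, with the highest folds 4.54 for XRN2 (2.75 to 7.12, from 17 fragments inside the gene), 3.89 for XRN1 and 3.30 for DXO (2.05 to 5.06). The DXO peak also overlapped the start window of WHR1, and the RNASEH2B peak that of RNASEH2B-AS1. In RNASEH1 itself the list held 3 peaks, of 3.56-fold at the start, 3.12-fold inside the gene and 4.66-fold beyond its downstream end. Over the genes with a peak, the median of the highest fold per gene was 3.69 in the 10 genes, and 3.19, 3.32, 3.26 and 3.89 in these 4 lists in the order given. Over all protein-coding genes it was 3.52.

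REXO4-D386A peaks were found at 2 of these 34 genes, against the background of 6.16%. WRN, a helicase gene whose protein also has a DEDD exonuclease domain, had a REXO4 peak of 2.47-fold (1.67 to 3.53) 654 bp outside its lower boundary, inside the neighbour PURG, and this peak did not overlap the RNaseH1 peak of WRN (3.08-fold). EXD3 had REXO4 peaks of 2.04-fold and 1.98-fold, 4802 and 4137 bp outside its lower boundary. Both overlapped a single RNaseH1 peak of 2.48-fold that covers the start window of NRARP, the gene of a Notch pathway inhibitor.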

How the data were processed

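Peaks were called with MACS2 (2.1.0.20150731) on hg38, per the submitters' processing notes. The notes also list HISAT2 (2.2.1), Trim Galore (0.6.10), SAMtools (1.17), deepTools (3.5.1) and Cufflinks, with no roles or settings. The fold enrichment (a ratio), the −log10 p, the −log10 q and the peak score are the authors' deposited values. Scores were not used. Peak names carry a number after ChIPseq, and whether it marks a replicate or another experiment is not stated. The names do not otherwise say which libraries or which doxycycline condition entered, so a list may rest on 1 ChIP library.

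The 10 genes and the comparison lists were chosen with earlier results of these data known. Genes came from a RefSeq table (GRCh38.p14) of 59792 genes, of which 831 were left out. A gene was left out if it had no usable chromosome position or if its start was listed out of order along its chromosome. A peak counted with an overlap of 1 bp. Fragments at a summit were recovered by solving the deposited fold and p for a whole number under the Poisson distribution (tolerance 0.05), which worked for 1459 of 1460 REXO4 peaks and all 54623 RNaseH1 peaks, and was tested on simulated peaks. All members and, from the comparison lists, genes with a REXO4 peak, without an RNaseH1 peak, or among the 3 of highest RNaseH1 fold are named. Protein sequences were not used here, so the planned protein comparison was not made. The work used SciPy 1.17.1, NumPy 2.4.6 and pandas 2.3.3 in Python 3.11.15, with figures from matplotlib 3.10.9.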

Additional observations from a re-analysis of the deposited data

How the results depend on the processing

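With windows of 10 kb around the genes, 1 REXO4 peak at 1 of the 10 genes was counted, the peak in SRM near EXOSC10, where windows of 5 kb held 0. The number of RNaseH1 peaks was 18 with no flank, 30 with 10 kb and 17 at a −log10 q of at least 5, against 23 as reported, and all 10 genes kept at least 1 peak in each of these settings and when peaks were counted by summit. Genes with an RNaseH1 peak within 1 kb of a boundary numbered 9, 8 by summit and 10 within 2.5 kb. The median RNaseH1 fold was 2.85, 2.88 with no flank and 3.19 at the stricter q. Shared pairs of peaks were 0 under both overlap rules, which adds nothing further, since no REXO4 peak was counted at the 10 genes. No paired analysis was possible because the peak lists hold no value per library, and for the same reason no replicate could be left out. A median REXO4 fold could not be given, since no peak was counted.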

Other observations

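The start window of EXOSC10 holds several copies of a short string, separated by other bases. The string AATCGCAGG occurs 5 times on the gene's strand within the 300 bases printed for EXOSC10, and 4.27% of the 22199 windows of protein-coding genes hold some string of 9 bases in at least 5 copies. The RNaseH1 peak begins inside the stretch that holds these copies of AATCGCAGG. This was noticed after the sequences were seen.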
